A study of Mus musculus with 3 samples.

Results

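In mouse astrocyte cultures kept in MIM, 292 of 14964 cells (1.95%, 95% interval 1.74 to 2.19%) held transcripts of Gfap or Aqp4 at the level set here, out of 33927 cells in 3 libraries. Whether these transcripts were kept from before MIM was not tested. A member was a cell of the MIM-Astrocytes library with at least 1 Gfap UMI or at least 2 Aqp4 UMIs, after cells with under 200 detected genes or over 20% mitochondrial UMIs had been left out. A UMI is a molecular tag that lets each captured transcript be counted once. The members were described against cells of the same library with 0 UMIs of both genes, 5 of them for each member, chosen for like total UMIs (1460 matched cells).

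The study profiled MIM-Astrocytes, untreated Astrocytes and NSC (neural stem cells) by droplet single-cell RNA sequencing, with 1 library each. MIM is a serum-free mix of DMEM-F12 and Neurobasal with B27, N2, FGF2 at 20 ng/mL and up to 6 added metabolites: the amino acids glycine, cysteine, methionine and threonine, the polyamine putrescine and the methyl donor S-adenosylmethionine. Which of them this library received, and for how many days up to 5, is not given in the sources used here. Untreated astrocytes stayed in DMEM-F12 with B27, Glutamax and 10% heat-inactivated serum, and NSC grew as neurospheres with EGF and FGF2. All 3 libraries are labelled cortex of C57BL/6 mice at E14.5, while the protocols describe astrocytes either sorted for GLAST from newborn cortex or differentiated from neurospheres, without saying which was used. All cells were fixed in methanol. With 1 library for each condition there was no replicate, so no test was made between conditions or between sets of cells of 1 library, and every interval below is a 95% interval that covers counting error only.

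GFAP is the intermediate filament protein by which astrocytes are usually recognised, and it rises further when they become reactive. AQP4 is the water channel of the astrocyte membrane, concentrated where the cell touches blood vessels. Mature astrocytes also take up glutamate and GABA, carry lipid on apolipoprotein E and rarely divide, whereas astrocytes moved toward a progenitor state lose part of this set and may re-enter the cell cycle.

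The members held few UMIs of the genes that chose them. Of the 180 Gfap members, 163 had 1 Gfap UMI, 13 had 2, 3 had 4 and 1 had 5. Of the 114 cells with 2 or more Aqp4 UMIs, 102 had 2, 10 had 3 and 2 had 4. Only 2 cells met both parts of the rule, and 112 members had Aqp4 without Gfap. Just outside the rule stood 905 cells with 1 Aqp4 UMI and no Gfap. Members had a median of 4604 total UMIs, against 4604.5 in matched cells and 3052 in all 13767 cells with neither transcript.

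Levels are given as CPM, UMIs scaled to a total of 1000000 over the cells of a set. Over whole libraries, Gfap stood at 4.05 CPM in MIM-Astrocytes, against 271 CPM in untreated Astrocytes and 1.16 CPM in NSC. Aqp4 stood at 22.9 CPM in MIM-Astrocytes, against 566 CPM in untreated Astrocytes and 11.9 CPM in NSC. When each cell was thinned to 1000 UMIs, 0.393% of MIM-treated cells met the rule (0.296 to 0.511%), against 29.1% of untreated astrocytes and 0.169% of NSC (0.0901 to 0.289%). Without thinning the shares were 1.95% in MIM-Astrocytes, 75.2% in Astrocytes and 0.284% in NSC, at median depths of 3156, 5089 and 1379 UMIs. The thinning left out 973 MIM-treated cells, 351 untreated astrocytes and 1457 NSC that held fewer UMIs. The share moves with depth, so a cell without a UMI of either gene is not shown to lack the transcript.

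At this depth Gfap and Aqp4 could not be shown to mark the same cells. In the 180 cells with Gfap, Aqp4 averaged 25.8 CPM, against 24.0 CPM in 900 cells without Gfap of like depth, a ratio of 1.07 (0.653 to 1.70). Seen the other way, Gfap averaged 5.90 CPM in the 1038 cells with Aqp4, against 4.69 CPM in 5190 matched cells without it, a ratio of 1.26 (0.791 to 1.93). In untreated Astrocytes, Aqp4 averaged 600.3 CPM in cells with Gfap, against 528 CPM in matched cells without it, a ratio of 1.14 (1.11 to 1.16). The intervals of the MIM-treated library hold both 1 and the ratio of the untreated library.

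The transcripts were not spread evenly over the MIM-treated cells. The cells were clustered on other genes, with Gfap and Aqp4 left out, and 229 of the 292 members (78.4%) fell in cluster 0, whose leading genes were Aldoc, Sparcl1, F3 and Apoe, against 46.3% of the matched cells. Across all 5837 cells of that cluster, Gfap stood at 7.01 CPM (5.97 to 8.18) and Aqp4 at 34.1 CPM (31.8 to 36.6). In cluster 1, led by Gm813, Lhfpl3, Prss23 and Gadd45g, no Gfap UMI was found in 2804 cells holding 5476607 UMIs, which allows a level of up to 0.548 CPM, or a share of cells with a Gfap UMI of up to 0.107%, and Aqp4 stood at 4.57 CPM (2.95 to 6.74). Its cells were shallower, with a median of 1798 UMIs against 3859 in cluster 0, and the CPM take this into account. The summed oligodendrocyte lineage genes stood at 2492 CPM in cluster 1 and 783 CPM in cluster 0. Cluster 1 held 1 member.

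The 2 clusters led by genes of cell division held a smaller part of the members than of the matched cells. Cluster 4, led by the replication genes Lig1, Tk1 and Pclaf, held 38 members, or 13.0% of them, against 21.4% of matched cells, with Gfap at 3.00 CPM. Cluster 5, led by the mitotic genes Cenpa, Hmmr and Cenpf, held 10 members, or 3.42% of them, against 14.8% of matched cells, with Gfap at 0.796 CPM. Cluster 3, led by Wnt4, Hnrnpa1 and Selenoh, held 6 members in 2049 cells and Gfap at 0.673 CPM. Cluster 2, whose cells had a median of only 801 UMIs, held 8 members and Gfap at 8.90 CPM with a wide interval (3.84 to 17.5).

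The ratio of the 2 transcripts differed between clusters. There were 161 Gfap UMIs beside 784 Aqp4 UMIs in cluster 0, 28 beside 165 in cluster 4, 4 beside 83 in cluster 3, 5 beside 92 in cluster 5, 0 beside 25 in cluster 1 and 8 beside 17 in cluster 2. That is 20.5 Gfap UMIs for every 100 Aqp4 UMIs in cluster 0, 4.82 in cluster 3, 47.1 in the shallow cluster 2, 17.7 over the MIM-treated library and 48.0 over the untreated library. The value of cluster 2, which rests on few UMIs, was close to that of the untreated library. At the finer clustering, 1 cluster led by Hopx, Sparcl1, Aldoc and Glul held 147 members (50.3%) in 16.4% of the cells, against 20.4% of matched cells, with Gfap at 12.4 CPM. There, 1 small cluster of 215 cells led by the mitotic genes Pttg1, Cenpa and Prc1 held 12 members, 4.11% of them, against 3.97% of matched cells, with Gfap at 5.24 CPM.

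**Figure D1:**
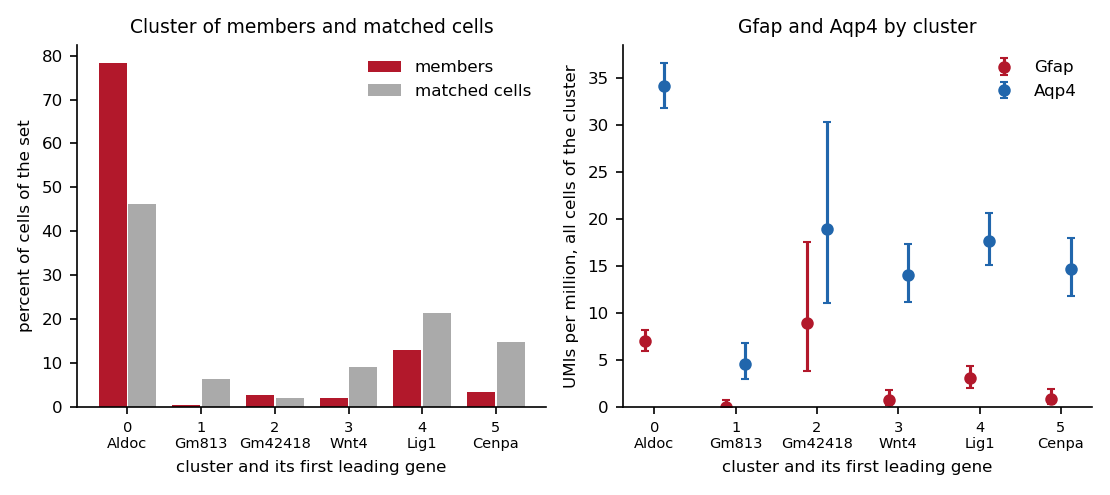
Left, the percent of members (red) and of depth-matched cells (grey) that fell in each of the clusters of MIM-treated cells. Right, Gfap (red) and Aqp4 (blue) in CPM over all cells of each cluster, with 95% counting intervals: Gfap stood at 7.01 CPM in cluster 0 and at 0 in cluster 1.

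The members carried more of the transcripts of mature astrocytes than matched cells did. Of 32 genes in that list other than Gfap and Aqp4, 30 were measured, meaning at least 20 UMIs over members and matched cells together, and all 30 were above 0 on the log2 scale, with a median of 0.52. On CPM plus 1, 9 were past a ratio of 1.5 upward and 0 downward. Over all 9485 genes measured, 3584 were above 0, 446 (4.7%) were higher, 1355 (14.3%) were lower and the median was -0.11. Summed, the list took 78574 CPM in members, against 58300 CPM in matched cells, a ratio of 1.35 (1.34 to 1.36).

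The most abundant 3 genes made up 91.0% of those UMIs. Apoe, the lipid carrier, stood at 25465 CPM in members, against 17534 CPM in matched cells (ratio 1.45, 1.44 to 1.47). Cst3, the secreted protease inhibitor cystatin C, stood at 30974 CPM in members, against 23929 CPM in matched cells (ratio 1.29). Mt3, a metal-binding protein of brain cells, stood at 15018 CPM in members, against 12124 CPM in matched cells (ratio 1.24). The lower bound of the ratio lay above 1 for 27 of the 30, these 3 among them. Such bounds cover counting error only, and the share of all measured genes with such a bound is not given here.

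Among the genes past 1.5-fold, F3, the tissue factor that starts coagulation, stood at 157 CPM in members, against 74.1 CPM in matched cells (ratio 2.12, 1.81 to 2.49). Id4, an inhibitor of basic helix-loop-helix factors, stood at 33.4 CPM in members, against 15.8 CPM in matched cells (ratio 2.12, 1.48 to 3.00). Sparcl1, a secreted synapse-promoting protein, stood at 1150 CPM in members, against 623 CPM in matched cells (ratio 1.85, 1.74 to 1.95). These 3 ratios were the highest of the list together with that of Slc6a11 and 2 others described next.

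Transporters and metabolic enzymes of astrocytes lay on the same side. Slc6a11, the GABA transporter GAT3, stood at 36.9 CPM in members, against 17.6 CPM in matched cells (ratio 2.10, 1.49 to 2.91). Slc1a2, the glutamate transporter GLT-1, stood at 42.5 CPM in members, against 23.2 CPM in matched cells (ratio 1.84, 1.34 to 2.48). Fgfr3, a receptor for FGF, stood at 20.9 CPM in members, against 10.9 CPM in matched cells (ratio 1.91, 1.21 to 2.95). Aldoc, the brain form of the glycolytic aldolase, reached a ratio of 1.67 (1.54 to 1.79), Cpe, a peptide-processing carboxypeptidase, 1.65, and Aldh1l1, a folate enzyme widely used as an astrocyte marker, 1.67 (1.19 to 2.31). Slc1a3, which encodes GLAST, differed less, at 442 CPM in members, against 360 CPM in matched cells (ratio 1.23, 1.13 to 1.34). The lowest 2 of the list were Ntsr2, a neurotensin receptor, at a ratio of 1.05 (0.559 to 1.85), and Htra1, a secreted protease, at 1.04 (0.647 to 1.61).

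**Figure D2:**
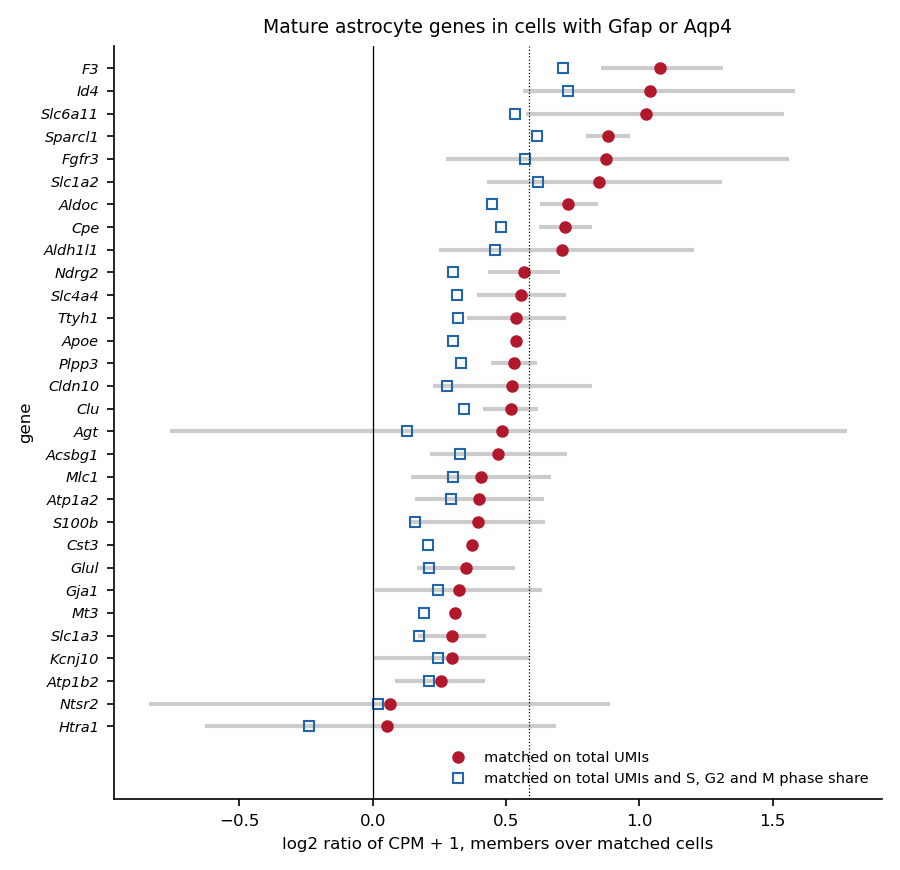
Log2 ratio of CPM plus 1 in members over matched cells for the 30 measured mature astrocyte genes. Red points are matched on total UMIs, with grey lines for the 95% counting interval of the plain CPM ratio; blue squares are matched also on the share of S, G2 and M phase transcripts, and the dotted line marks 1.5-fold. All red points lie above 0, from 0.05 for Htra1 to 1.08 for F3.

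Much of this list was no lower in the members than in untreated astrocytes. In 21 of the 30 genes the members' CPM was above that of the whole untreated library, and in 9 it was below. The same share over all measured genes is not given here. Among the 9, Clu stood at 702 CPM in members, against 4070 CPM in untreated Astrocytes, and Id4 at 33.4 CPM, against 203 CPM. The summed list stood at 78574 CPM in members, against 49622 CPM in untreated Astrocytes and 15261 CPM in NSC. Apoe, Cst3 and Mt3 made up 91.0% of its UMIs in members. Slc6a11 stood at 36.9 CPM in members, against 0.336 CPM in untreated Astrocytes. Cldn10, a tight-junction protein, stood at 85.7 CPM in members, against 4.07 CPM in untreated Astrocytes. S100b, a calcium-binding protein of glia, stood at 116 CPM in members, against 11.8 CPM in untreated Astrocytes. Matched cells, too, stood above the untreated library, with the summed list at 58300 CPM, Slc6a11 at 17.6 CPM, Cldn10 at 59.3 CPM and S100b at 88.3 CPM.

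Transcripts of cell division were lower in members. Over all measured genes 4.7% were higher and 14.3% lower. Among 52 measured genes of G2 and M phase, 47 were lower past 1.5-fold and 0 higher, the median log2 ratio was -1.37, and the summed list stood at 2429 CPM in members, against 5770 CPM in matched cells (ratio 0.421, 0.407 to 0.436). Among 40 measured genes of S phase, 22 were lower and 0 higher, the median was -0.67, and the sum stood at 1039 CPM in members, against 1830 CPM in matched cells (ratio 0.568, 0.538 to 0.599). Taken per cell, 217 of 292 members had an S, G2 and M phase share below the median of the matched cells. The median share was 0.0863% in members and 0.158% in matched cells.

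Over the whole library, cells were also cut into 5 equal groups by that share. Gfap stood at 5.92, 5.95, 4.89, 2.51 and 1.69 CPM from the lowest to the highest share of division transcripts, and Aqp4 at 31.9, 28.0, 23.7, 17.7 and 15.7 CPM. Members made up 2.54% of the cells in the lowest group and 1.07% in the highest, although the highest group was the deepest, with a median of 4442 UMIs against 2852 in the lowest.

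When matched cells were also chosen for like division, by a comparison added after the values had been seen, the difference in mature astrocyte genes was smaller. Like division meant the same of those 5 broad groups by share of S, G2 and M phase transcripts. Then 4 of 30 were past 1.5-fold, 0 were lower, the median was 0.30 and the sum ratio 1.19 (1.18 to 1.20). Over all measured genes in that comparison, 4.38% were higher and 9.53% lower. With matched cells taken from the same cluster, also added afterwards, 3 of 30 were higher and 0 lower. Of the 30, 28 were above 0, the median was 0.21 and the sum ratio 1.12 (1.12 to 1.13). Of all 9485 measured genes in that comparison, 4194 were above 0, 4.77% were higher and 8.54% lower. The clusters were built from these same genes, so that matching within a cluster takes part of any difference away. F3, at 1.08 with depth alone matched, had a log2 ratio of 0.71 with division matched and 0.60 within clusters. Sparcl1, at 0.88 with depth alone matched, had 0.62 with division matched and 0.52 within clusters, where it was no longer past 1.5-fold.

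Among all 4156 genes at 20 CPM or more in members or matched cells, 76 (1.83%) were higher in members past 1.5-fold and 311 (7.48%) were lower, of which 46 belonged to the S, G2 and M phase lists. With division matched there were 41 higher (0.987%) and 78 lower (1.88%), and 27 of the 76 and 65 of the 311 were called both ways. Within clusters 42 (1.01%) were higher and 64 (1.54%) lower.

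The 12 genes with the highest log2 ratio were Sdsl, Abhd3, F3, Hopx, Lix1, Id4, Slc6a11, Ggact, Nkain4, Vcl, S1pr1 and Thrsp. Sdsl, a serine dehydratase-like enzyme, stood at 27.2 CPM in members, against 11.4 CPM in matched cells (ratio 2.39, 1.59 to 3.55). Vcl, the adhesion protein vinculin, stood at 27.9 CPM in members, against 13.6 CPM in matched cells (ratio 2.04, 1.38 to 2.98). S1pr1, a receptor for sphingosine-1-phosphate, stood at 111 CPM in members, against 56.8 CPM in matched cells (ratio 1.95, 1.61 to 2.35), and at 12.7 CPM in untreated Astrocytes. Thrsp, a regulator of lipid synthesis, stood at 226 CPM in members, against 120 CPM in matched cells (ratio 1.89, 1.66 to 2.15), and at 38.5 CPM in untreated Astrocytes. All 12 stayed above 0 with division matched, from 0.53 to 0.91 on the log2 scale. Of the 12, 10 were still past 1.5-fold with division matched, and 9 within clusters.

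The 12 genes with the lowest log2 ratio were Oip5, Dbf4, Kif4, Bub1, Plk1, Cdkn3, Cep55, Depdc1a, Cenpa, Sgo1, Aurka and Hmmr. Cenpa, the centromeric histone, stood at 93.3 CPM in members, against 289 CPM in matched cells (ratio 0.322, 0.268 to 0.384). Plk1, a mitotic kinase, stood at 15.3 CPM in members, against 53.4 CPM in matched cells (ratio 0.287, 0.178 to 0.440). Hmmr, a spindle protein, stood at 36.2 CPM in members, against 108 CPM in matched cells (ratio 0.334, 0.247 to 0.443). With division matched, 8 of the 12 were still past 1.5-fold, and 4 within clusters. With division matched, Sgo1, a protector of chromosome cohesion, was the nearest to 0, at -0.27.

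The genes that set untreated astrocytes apart were, as a set, slightly higher in members. A total of 189 genes other than these 2 were at least 4-fold higher in untreated Astrocytes than in MIM-Astrocytes and at 50 CPM or more there, and 170 of them were measured. In members over matched cells 23 of the 170 were higher and 9 were lower, beside 4.7% higher and 14.3% lower over all measured genes. Of the 170, 109 were above 0, beside 3584 of all 9485 measured genes, and the median log2 ratio was 0.17. Summed, they stood at 12233 CPM in members, against 10157 CPM in matched cells (ratio 1.20, 1.19 to 1.22), and at 87071 CPM in untreated Astrocytes. With division matched, 14 were higher and 11 lower, beside 4.38% and 9.53% of all measured genes, and the sum ratio was 1.13 (1.12 to 1.15). Within clusters, 17 were higher and 10 lower, beside 4.77% and 8.54% of all measured genes, and the sum ratio was 1.09 (1.07 to 1.11).

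Of these genes, 17 stood at 1000 CPM or more in untreated Astrocytes, a bound chosen after the values had been seen, and none was 1.5-fold higher in members. Prdx6, an antioxidant enzyme, stood at 2620 CPM in members, against 2009 CPM in matched cells (ratio 1.30, 1.26 to 1.35) and 19211 CPM in untreated Astrocytes. Clu, the secreted chaperone clusterin, stood at 702 CPM in members, against 490.3 CPM in matched cells (ratio 1.43, 1.33 to 1.54) and 4070 CPM in untreated Astrocytes. Fbxo2, a ubiquitin ligase subunit, stood at 352 CPM in members, against 251 CPM in matched cells (ratio 1.40, 1.27 to 1.55) and 7848 CPM in untreated Astrocytes. Prdx6, Clu and Fbxo2 were each closer to the matched cells than to the untreated library. The list was chosen for levels at least 4-fold higher in untreated Astrocytes than in MIM-Astrocytes, which largely set this in advance.

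Vim, the intermediate filament protein vimentin, stood at 511 CPM in members, against 423 CPM in matched cells (ratio 1.21, 1.11 to 1.31). Cryab, a small heat shock protein, stood at 291 CPM in members, against 269.8 CPM in matched cells (ratio 1.08, 0.968 to 1.20), and at 5450 CPM in untreated Astrocytes. Capns1, a calpain subunit, was at a ratio of 1.00 (0.887 to 1.13). Id3, a target of BMP signalling, was lower, at 18.8 CPM in members, against 38.3 CPM in matched cells (ratio 0.490, 0.317 to 0.730) and 1378 CPM in untreated Astrocytes. Against their own matched cells, its log2 ratio was -2.04 in Gfap members, on 8 UMIs, and -0.05 in members with Aqp4 alone. With division matched its ratio over all members was 0.747 (0.479 to 1.125). Prss23, a secreted protease, was also lower, at 48.8 CPM in members, against 84.8 CPM in matched cells (ratio 0.575, 0.442 to 0.738). Serpinf1, a secreted serpin at 1016 CPM in untreated Astrocytes, had 1 UMI in members and 14 UMIs in matched cells.

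The distance covered toward the untreated level differed between genes. For each gene, the difference between members and matched cells was set against the difference between untreated Astrocytes and matched cells. It came to 3.55% for Prdx6, 5.92% for Clu, 1.34% for Fbxo2 and 0.412% for Cryab. Over the 17 genes it ran from -3.74% for Prss23 to 7.89% for 1500015O10Rik, with a median of 2.97%. For Gfap and Aqp4 the members stood at 52.9% and 32.1% of the untreated level, values that the rule fixes and to which those of other genes cannot be compared. The 17 values lay on both sides of 0, with 14 above it. Over all 170 measured genes it ran more widely, from -18.5% to 36.8%, with a median of 1.87% and 109 above 0.

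**Figure D3:**
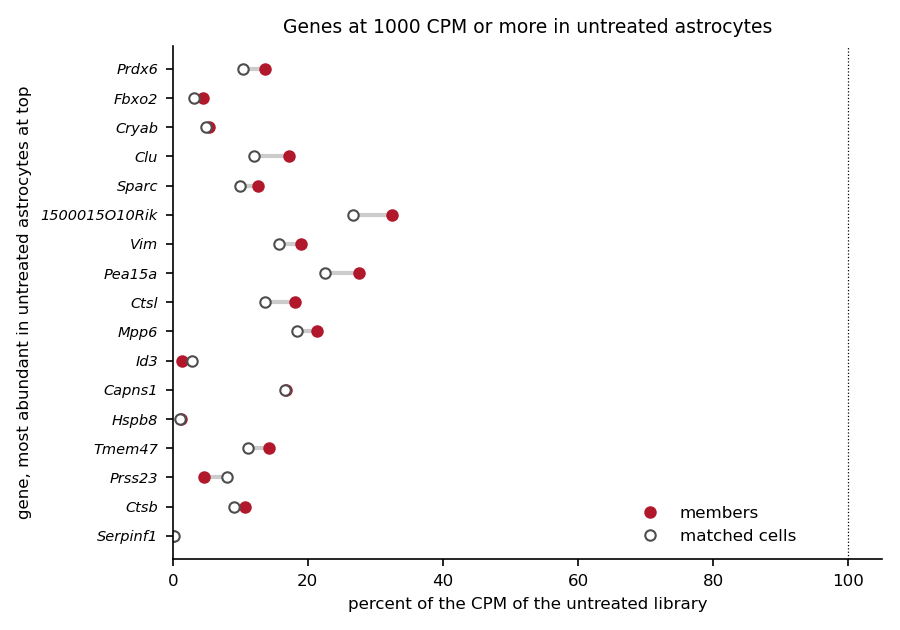
CPM in members (red) and in matched cells (open) as a percent of the CPM of the untreated library, for the 17 genes at 1000 CPM or more there, with the most abundant at the top. Prdx6 stood at 13.6% in members and 10.5% in matched cells. Every gene lies far from 100%, a distance largely set by how the genes were chosen.

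The members' share of these genes lay far below that of untreated astrocytes. Choosing the genes by their higher level in untreated Astrocytes than in MIM-Astrocytes largely set this distance in advance. The genes high in untreated astrocytes took a median of 1.17% of the UMIs of a member, with the lowest member at 0.366% and the highest at 2.61%. The median was 0.954% in matched cells, with the lowest at 0.0891% and the highest at 3.71%, and 8.60% in untreated astrocytes. The lowest percentile of untreated astrocytes stood at 5.19%, and 0 of 292 members reached it, which allows a share of up to 1.03% of such cells. Of the untreated astrocytes, 17 of 9818 lay at or below the highest member. The shift against matched cells was carried by most members, as 231 of 292 lay above the matched median. For mature astrocyte genes 235 of 292 did, with medians of 7.49% in members and 5.22% in matched cells.

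**Figure D4:**
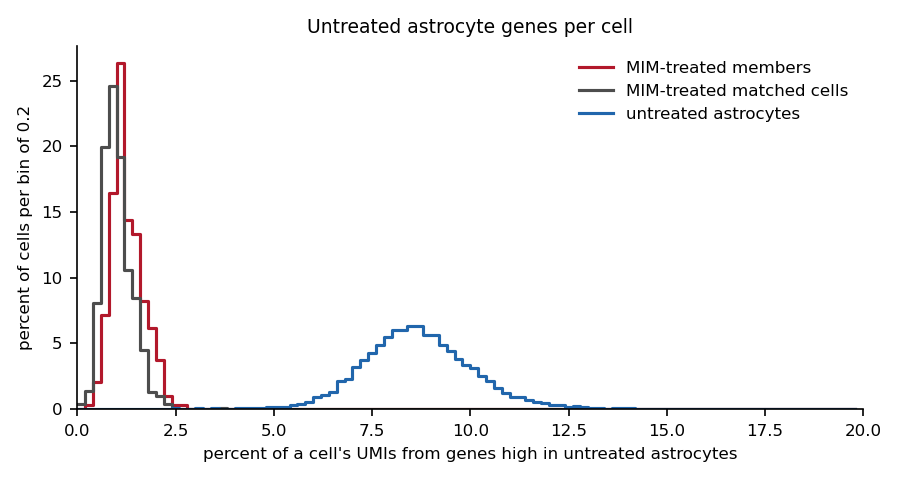
Percent of each cell's UMIs that came from the 189 genes high in untreated astrocytes, in members (red), matched cells (dark grey) and untreated astrocytes (blue), as the percent of cells in each bin. Members, with a median of 1.17%, lie just above matched cells at 0.954% and clear of most untreated astrocytes at 8.60%. The distance from untreated astrocytes was largely set by how the genes were chosen.

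The differences varied with the UMIs of Gfap and Aqp4 that a cell held, though not by even steps. Each class was set against its own matched cells, and mature astrocyte genes were summed. The ratio was 1.18 in the 905 cells with 1 Aqp4 UMI, which are no members, 1.19 (1.17 to 1.20) in the 100 cells with 2 and 1.78 (1.72 to 1.84) in the 12 cells with 3 or 4. It was 1.41 (1.39 to 1.42) in the 145 cells with 1 Gfap UMI alone, 1.58 in the 18 with 1 Gfap UMI and Aqp4, and 1.47 (1.43 to 1.51) in the 17 cells with 2 or more Gfap UMIs. The summed S, G2 and M phase genes stood at a ratio of 0.777 in cells with 1 Aqp4 UMI, 0.445 in cells with 1 Gfap UMI alone and 0.199 (0.169 to 0.232) in the 18 cells with both. The classes of 12, 17 and 18 cells are small, and the counting intervals do not cover the variation between cells.

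**Figure D5:**
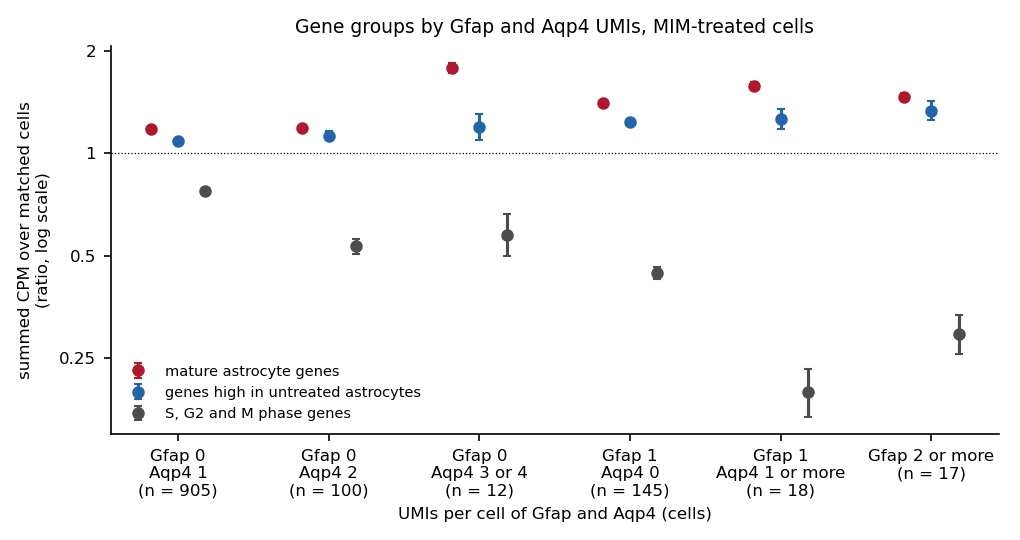
Ratio of summed CPM, on a log scale, in MIM-treated cells of each Gfap and Aqp4 UMI class over matched cells without either transcript, with 95% counting intervals. Mature astrocyte genes (red) and genes high in untreated astrocytes (blue) lie above 1 in every class, and S, G2 and M phase genes (grey) below 1, from 0.777 in cells with 1 Aqp4 UMI to 0.199 in cells with 1 Gfap UMI and Aqp4.

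Members chosen by Gfap and members chosen by Aqp4 alone differed in some genes, in a comparison added after the values had been seen. Of 2181 genes at 50 CPM or more in either, 53 (2.43%) were 1.5-fold higher in Gfap members and 91 (4.17%) were lower. Hopx, a homeodomain protein of stem cells and astrocytes that binds no DNA, differed most, at 284 CPM in the 180 Gfap members, against 51.4 CPM in the 112 Aqp4 members (ratio 5.52, 3.73 to 8.47). It was found in 43.3% of Gfap members (36.0 to 50.9%), 16.1% of Aqp4 members (9.81 to 24.2%) and 21.8% of matched cells. Against their own matched cells, its log2 ratio was 1.63 in Gfap members and -0.79 in Aqp4 members, so the difference for all members came from the Gfap cells. Cells with many UMIs weighed on it, as 5 of the Gfap members held 77 of the 253 Hopx UMIs.

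Other genes stood apart less. Lix1 was at 53.9 CPM in Gfap members, against 23.9 CPM in Aqp4 members (ratio 2.26, 1.20 to 4.54). Efhd2, a calcium-binding protein, was at 77.4 CPM in Gfap members, against 34.9 CPM in Aqp4 members (ratio 2.22, 1.32 to 3.90). Serpinh1, a collagen chaperone, was at 23.6 CPM in Gfap members, against 62.4 CPM in Aqp4 members (ratio 0.377, 0.208 to 0.669). Nupr1, a stress-induced nuclear protein, was at 33.7 CPM in Gfap members, against 91.8 CPM in Aqp4 members (ratio 0.366, 0.225 to 0.588). It was found in 10.6% of Gfap members and 13.4% of Aqp4 members, so the shares of cells differed less than the CPM. Of the 30 mature astrocyte genes, 26 were above 0 in both kinds of member against their own matched cells, with medians of 0.56 in Gfap members and 0.49 in Aqp4 members. Past 1.5-fold, 15 of the 30 were higher and 0 lower in Gfap members, where 7.37% of all measured genes were higher and 19.3% lower. In Aqp4 members 10 were higher and 0 lower, where 10.2% of all measured genes were higher and 21.3% lower.

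Genes of reactive and stressed astrocytes rested on few UMIs. Their counts stand beside 4.7% higher and 14.3% lower over all measured genes. In the reactive astrocyte list 9 of 28 genes were measured, with a median log2 ratio of 0.22, 2 higher and 2 lower, and 11 had no UMI in members. Cd44, a hyaluronan receptor, stood at 11.1 CPM in members, against 3.83 CPM in matched cells (ratio 2.91, 1.46 to 5.59). Lcn2, which encodes lipocalin, had 15 UMIs in members and 27 in matched cells. The lower pair were Timp1, a protease inhibitor, with 3 UMIs in members and 47 in matched cells (ratio 0.313, 0.0622 to 0.970), and S100a10, an annexin partner, with 12 UMIs in members and 117 in matched cells. In the small heat shock list, 1 of 7 measured genes was higher, Bag3, on 9 UMIs in members and 12 in matched cells, and the median was 0.04.

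In the contractile and serum response list 6 of 18 genes were measured, Vcl was the only one past 1.5-fold, and the median was -0.01. Beside this list and those that follow, 4.7% of all measured genes were higher and 14.3% lower. In the BMP list 8 genes were measured, with Id4 higher and Id3 lower, and a median of -0.03. Id3 was not past 1.5-fold in members with Aqp4 alone, nor in all members with division matched. In the interferon list 13 were measured, with a median of 0.06, and the 3 that were higher, Ifit3, Bst2 and Isg15, had 16, 8 and 12 UMIs in members. In the list of secreted factors of untreated astrocytes 4 were measured, with Igfbp5 higher and Ogn lower on 10 and 5 UMIs in members, and a median of -0.06. The metallothionein genes were above 0 in 3 of 3, and Mt1 had the highest ratio at 1.42 (1.38 to 1.46).

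Genes of progenitors and of the oligodendrocyte lineage were mixed. The neural progenitor list had 19 measured genes, a median of 0.02, 1 higher and 3 lower. These counts are near the shares over all measured genes, 4.7% higher and 14.3% lower. Msi1, an RNA-binding protein of stem cells, was at a ratio of 1.54 (1.06 to 2.22), while Cd24a, a surface protein of young neural cells, was at 0.455 (0.237 to 0.800), Sox4, a factor of immature neural cells, at 0.562, and Dll1, a Notch ligand, had 1 UMI in members and 25 in matched cells. The oligodendrocyte lineage list had 7 measured genes, a median of -0.26, 1 higher and 3 lower. Olig2, a factor needed for that lineage, stood at 29.9 CPM in members, against 55.7 CPM in matched cells (ratio 0.538, 0.383 to 0.738). Lhfpl3 was at a ratio of 0.446 (0.217 to 0.826) and Sox8 at 0.661.

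Signalling and metabolic lists showed few calls, and over all measured genes 4.7% were higher and 14.3% lower. In the FGF feedback list of 11 measured genes, Ier3 was lower, with 3 UMIs in members and 83 in matched cells, and the median was 0.07. In the immediate early list of 7, Jun and Btg2 were lower and the median was -0.28. In the amino acid stress list of 17, Slc7a11, a cystine transporter, was higher at a ratio of 2.01 (1.05 to 3.68), Atf4, the factor of that response, was lower at 0.564 (0.381 to 0.809), and the median was -0.25. In the one-carbon list of 26, 4 were lower, Tyms, Mtap and Shmt1 among them, and the median was -0.04. That count is near the share over all measured genes. Tyms, which makes thymidylate for replication, was at a ratio of 0.569. Of 2 measured nuclear RNAs, Kcnq1ot1 was higher, with 23 UMIs in members and 65 in matched cells.

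Markers of other cell types were few. Microglia and macrophage genes summed to 44 UMIs in members and 204 in matched cells, and 12 of the 15 genes had no UMI in members. Endothelial genes summed to 6 UMIs in members and 37 in matched cells. Pericyte genes summed to 12 UMIs in members and 60 in matched cells, fibroblast genes to 20 UMIs in members and 106 in matched cells, and choroid plexus genes to 13 UMIs in members and 34 in matched cells. Ependymal genes summed to 45 UMIs in members and 224 in matched cells. Members held 1435701 UMIs in all and matched cells 7042552. Neuronal genes stood at 55.0 CPM in members, against 69.1 CPM in matched cells.

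Quality measures moved a little between the sets. The median mitochondrial share was 2.12% in members and 1.95% in matched cells. Malat1, a nuclear RNA, took a median of 10.5% of UMIs in members and 8.72% in matched cells. Ribosomal protein genes took 6.57% in members and 8.23% in matched cells, and their summed level was at a ratio of 0.831, or 0.880 with division matched. With totals taken without mitochondrial and ribosomal protein genes, 75 genes were higher and 369 lower, against 76 and 311 in the main run. With totals taken without Malat1, 93 were higher and 313 lower. Those runs change only the scale, and the part of these measures in the differences above was not tested. The deepest member had 25257 UMIs and the deepest matched cell 20771. The doublet caller Scrublet called 0 of 14964 cells, a count too low to rely on in a library of this size, so no cell was left out as a doublet and members may include doublets.

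None of the 292 members had a cell barcode that also occurred in the Astrocytes or the NSC library, which allows a share of up to 1.03%. Of the matched cells, 8 of 1460 shared a barcode with Astrocytes and 2 with NSC, and of all kept MIM-treated cells 43 did with Astrocytes and 32 with NSC.

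The same rule was applied inside the untreated library, where 7381 of 9818 cells met it. Because only 1437 cells there had 0 UMIs of both genes, each was given 3 cells meeting the rule at like depth. Of 11992 genes measured there, 315 (2.63%) were higher in cells meeting the rule and 245 (2.04%) lower. In the mature astrocyte list 5 of 30 were higher, 0 were lower and the median log2 ratio was 0.29, although the sum ratio was 0.984 (0.980 to 0.988), with Cst3, its most abundant gene there, at a ratio of 0.767. G2 and M phase genes had a median of -0.05 in that library, where they were rare, with a sum of 490 CPM.

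Across 3723 genes at 20 CPM or more in both libraries, the log2 ratios of the 2 libraries had a Pearson r of 0.302 and a Spearman rho of 0.283. Genes are not independent replicates, and within each library the points share the same cells. Of the 60 genes higher in MIM-treated members, 46 were above 0 in the untreated library, against 1409 of all 3723, but only 6 were past 1.5-fold there and 0 were past it downward. F3 was at a ratio of 1.40 (1.30 to 1.51) there, and Sdsl at 0.921 (0.818 to 1.04). Slc6a11 was too rare there for a comparison, at a ratio of 2.33 (0.313 to 103).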

How the data were processed

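The deposited files are raw counts of UMIs per gene and cell barcode for 3 libraries of the 10x Genomics system, in the sparse format per the file headers. Reads were aligned to mm10 with Cell Ranger 3.0.2, per the labels' protocols, and Seurat 3.1.1 is named in the submitters' processing notes without a role. Barcodes with at least 200 genes and at most 20% mitochondrial UMIs were kept. Kept cells held 50906724 UMIs in MIM-Astrocytes, 50594420 in Astrocytes and 14689259 in NSC.

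Each member, deepest first, took its 5 nearest unused cells with 0 Gfap and 0 Aqp4 UMIs by total UMIs. Counts were summed over cells and divided by the sum over all genes (CPM); 1 CPM was added before log2 ratios were taken. Calls past 1.5-fold were made among genes with 20 CPM in either set (all genes) or 20 UMIs over both (lists). Intervals are exact (Poisson for sums, binomial for ratios and shares, shares by Clopper-Pearson), at 95%; limits from a count of 0 use 3 counts. Named genes were the 12 highest and 12 lowest log2 ratios, the 12 genes high in untreated astrocytes with most UMIs in members, and up to 2 highest and 2 lowest of each list; others were named after their values were seen. Clusters are Leiden communities (scanpy 1.11.5, resolution 0.5, 2000 variable genes, 30 components, 15 neighbours) without Gfap and Aqp4. The procedure was tested on simulated data. Python 3.11.15, numpy 2.4.6, scipy 1.17.1 and edgeR 4.0.16 (TMM factors only) were used. Members and the 24 gene lists were chosen with earlier results of these data known. In Astrocytes, cells with 0 UMIs of both genes were fewer than cells meeting the rule, so 3 cells meeting the rule were taken for each cell with 0 UMIs. A few genes of these lists are not reported here by name.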

Additional observations from a re-analysis of the deposited data

Results flagged for a closer look

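NSC were not part of the comparison of members with matched cells, yet 26 of 9145 NSC cells met the same rule without thinning, against 292 of 14964 MIM-treated cells. Gfap stood at 1.16 CPM in NSC (17 UMIs in the library), which is above what a count of 0 allows. Thinned to 1000 UMIs, 13 of 7688 NSC cells met the rule (0.169%, 0.0901 to 0.289%), whose interval lies below that of MIM-treated cells, 0.393% (0.296 to 0.511%). No control library without astrocyte transcripts was there to set a background.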

How the results depend on the processing

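No paired analysis was possible because each condition is 1 library and no test was made; leaving out a replicate was impossible for the same reason. Under every alternative run the 12 lowest genes stayed below 0, and the 12 highest stayed above 0 except Hopx, which fell to -0.79 with Aqp4 members only. These genes were picked as the extremes of the main comparison, and most runs reuse its cells, so their signs were largely set in advance. The sum ratio of members over matched cells ran over all settings from 1.12 to 1.57 for mature astrocyte genes, from 1.09 to 1.29 for genes high in untreated astrocytes and from 0.383 to 0.902 for S, G2 and M phase genes. The cause of the changes given here was not tested.

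Genes higher in members (76) came to 136 with 1 nearest cell, 137 with the mean of per-cell shares, 126 with TMM, 26 with a pseudocount of 10 CPM, 20 at 50 CPM, 1168 with no filter, 8 at 2-fold, 142 with Gfap members, 255 with Aqp4 members, 877 with the 29 members of 2 or more Gfap or 3 or more Aqp4 UMIs, 41 with division matched and 42 within clusters. Genes lower (311) came to 181 with a pseudocount of 10 CPM, 131 at 50 CPM, 2234 with no filter, 82 at 2-fold, 473 with Aqp4 members, 1141 with the stricter members, 78 with division matched and 64 within clusters.

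Of the genes high in untreated astrocytes, those higher (23) came to 5 with a pseudocount of 10 CPM, 0 at 50 CPM, 8 at 2-fold, 14 with an 8-fold list, 14 with the stricter members and 14 with division matched. Those lower (9) came to 17 with no matching, 3 with a pseudocount of 10 CPM, 2 at 50 CPM, 2 at 2-fold, 17 with Gfap members and 16 without the 8% of cells with the highest Scrublet scores.

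Mature astrocyte genes higher (9) came to 15 with no matching, 15 with per-cell means, 16 with TMM, 4 at 50 CPM, 3 at 2-fold, 15 with Gfap members, 18 with the stricter members, 4 with division matched and 3 within clusters. S phase genes lower (22) came to 12 with no matching, 9 with a pseudocount of 10 CPM, 9 at 50 CPM, 7 at 2-fold, 14 with the stricter members, 2 with division matched and 3 within clusters. G2 and M phase genes lower (47) came to 21 at 50 CPM, 28 with the stricter members, 5 with division matched and 4 within clusters. Division was matched on the summed share of these same S, G2 and M phase genes, so their fall there follows from the matching.

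The share of MIM-treated cells meeting the rule was 0.995% when thinned to 2000 UMIs, and 50.3% of members were in 1 cluster at the resolution of 1.0. Single genes called in members that changed sign were Lcn2 with Gfap members (-0.19), Igfbp5 with Aqp4 members (-0.81), Gap43 within clusters (0.018) and, with the 29 stricter members, Lcn2 (-2.37), Kcnq1ot1 (-2.71), Msi1 (-0.23), Timp1 (0.62), Cd24a (0.95) and Btg2 (0.28), all on the log2 scale. Members hold 1435701 UMIs together, and lists with few UMIs are imprecise.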
